A study of Mus musculus with 2 samples.

Results

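The 10 circadian clock genes described here are Per1, Per2, Per3, Cry1, Cry2, Clock, Arntl (named Bmal1 in newer annotation), Nr1d1, Nr1d2 and Dbp. They were chosen by symbol, matched through their Ensembl gene identifiers without version, and all 10 were found among the 43346 genes of the tables. The tissue was brain of a single mouse of the inbred strain C57BL/6J, an adult male aged 10 weeks, whose polyadenylated RNA was sequenced in 2 libraries. The labels call them technical replicates 1 and 2 of biological replicate 1 and date replicate 2 after the publication they cite. No treatment, mutation or time of day is given in the labels, which leaves a comparison of one library with the other. By these labels their spread is that of technical replicates. It says nothing of other mice, and with 1 library a side nothing here was checked in replicates.

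The circadian clock of mammals is a feedback loop of transcription. The proteins of Clock and Arntl bind E-box sequences as a dimer and switch on the Per and Cry genes, whose proteins return to the nucleus and repress that dimer. A further loop runs through Nr1d1 and Nr1d2, which encode the nuclear receptors REV-ERB alpha and beta and repress Arntl through sites shared with the ROR receptors. Dbp, a transcription factor that binds D-box sequences, is a direct E-box target and an output of the clock. In brain the master pacemaker lies in the suprachiasmatic nucleus of the hypothalamus, and most other brain regions carry clocks of their own.

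Depth was 18302506 estimated counts in replicate 1 and 17828479 in replicate 2. Markers of neurons (5 of 5), astrocytes (3 of 3), oligodendrocytes (3 of 3) and microglia (3 of 3) reached a TPM of at least 1 in both libraries. TPM is a level per transcript length, scaled to the same total for every library. Of 8 genes marking the suprachiasmatic nucleus 3 reached a TPM of 1 in each library: Vip at 56.74 and 47.36, Grp at 5.94 and 15.39, and Vipr2 at 1.17 and 1.86. Avp and Prok2 had 0 counts in both, Six6, Nms and Lhx1 were below 1 TPM, and Vip and Grp are also made by cortical neurons. The summed TPM of the neuron markers was 4179 in replicate 1 and 4189 in replicate 2, but its members moved apart, with Snap25 at 3457 and 2764 and Slc17a7 at 25.53 and 466.17. The sum was 684 and 649 for astrocytes, 1222 and 1657 for oligodendrocytes (Mag alone 14.36 and 223.76), and 62.1 and 97.0 for microglia (P2ry12 47.71 and 34.03, Csf1r 2.89 and 36.74). It was 15.1 and 79.2 for 3 endothelial genes (Cldn5 0.40 and 48.64, Pecam1 3.76 and 12.66, Flt1 10.92 and 17.87). For 3 liver genes it was 72.1 and 862, of which Ttr, also a choroid plexus gene, held 71.99 and 855.79. For 3 pineal genes it was 0.20 and 0.76. The part of cell makeup in the clock gene differences was not tested. In bulk tissue, fewer cells of a type and less RNA per cell cannot be told apart, and the cells that hold the clock transcripts are not resolved.

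The coding sequences of these genes differ widely in base composition, and the difference between the libraries followed it in part. A stretch of 60 coding bases is shown for each of the 6 genes that passed the test between the libraries. Each stretch lies within 1 coding exon and was picked for a GC content nearest to that of its whole coding sequence (GENCODE M21 transcripts, GRCm38, 5′ to 3′ on the gene's strand). Capitals mark G and C.
Per1, exon 16, plus strand, chr11:69104354-69104413: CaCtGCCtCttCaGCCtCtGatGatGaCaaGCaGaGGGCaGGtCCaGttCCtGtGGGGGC
Nr1d1, exon 5, minus strand, chr11:98770501-98770560: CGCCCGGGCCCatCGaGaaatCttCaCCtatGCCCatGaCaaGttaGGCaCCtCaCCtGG
Dbp, exon 2, plus strand, chr7:45706804-45706863: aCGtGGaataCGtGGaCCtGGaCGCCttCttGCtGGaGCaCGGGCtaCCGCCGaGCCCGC
Cry2, exon 6, minus strand, chr2:92416157-92416216: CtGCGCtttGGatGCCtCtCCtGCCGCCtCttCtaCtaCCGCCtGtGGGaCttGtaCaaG
Clock, exon 16, minus strand, chr5:76237082-76237141: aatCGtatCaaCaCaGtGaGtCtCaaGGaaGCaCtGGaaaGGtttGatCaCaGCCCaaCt
Nr1d2, exon 5, minus strand, chr14:18215108-18215167: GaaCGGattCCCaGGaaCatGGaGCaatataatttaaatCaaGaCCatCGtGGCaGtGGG
The stretches of Per1, Nr1d1, Dbp and Cry2 hold 36, 35, 40 and 35 G or C bases of 60, and those of Clock and Nr1d2 hold 27 each. The whole coding sequences have a GC content of 60.5% in Per1, 57.9% in Nr1d1, 65.9% in Dbp and 59.0% in Cry2. Those of Clock and Nr1d2 are at 44.6% and 45.8%. Of the genes that did not pass, Per2 is at 58.1%, above Nr1d1, Per3 at 55.2%, Cry1 at 50.7% and Arntl at 49.6%. Coding GC content alone thus did not separate the genes called higher from the rest. The GC content of whole transcripts did, at 55.4% to 61.6% in Per1, Nr1d1, Dbp and Cry2 and at most 54.3% in the others.

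The activators had the smallest log2 TPM differences between the libraries of the 10 clock genes. Clock, a basic helix-loop-helix partner of Arntl (ENSMUSG00000029238.8, chromosome 5, 76209868 to 76304792), was measured at 29.24 TPM in replicate 1 from 3065 counts, and at 21.41 TPM in replicate 2 from 1692 counts (mean 25.3 ± 5.54, SD, n = 2). Its TPM was thus lower in replicate 2, and it was called lower on counts, by 1.43 on the log2 scale with library sizes scaled by TMM (adjusted p = 4.01e-247, exact binomial test). With library totals the difference was -0.82, and with the trend of count ratios on GC content removed it was -0.06, both under 2-fold. Arntl (ENSMUSG00000055116.7, chromosome 7, 113207465 to 113314126), whose protein completes the dimer, stood at 12.43 and 17.25 TPM (14.8 ± 3.41, SD, n = 2), from 486 and 508 counts. It was not called, and its log2 count ratio was -0.51 with TMM sizes and 0.10 with library totals, so no direction is given for it.

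Among the Period genes, the repressors of the dimer, Per1 differed most. Per1 (ENSMUSG00000020893.13, chromosome 11, 69095217 to 69109960) had 18 counts in replicate 1 and 1427 in replicate 2, or 0.29 and 33.03 TPM. The TPM ratio was 114 (95% counting interval 71.8 to 193), and Per1 was called higher in replicate 2 (log2 count ratio 5.70, adjusted p = 4.42e-285, exact binomial test). With the GC trend removed the log2 count ratio was 1.55, still a call. Per1 is also known as a gene induced by light and by neuronal activity. Per2 (ENSMUSG00000055866.9, chromosome 1, 91415982 to 91459324), the Period gene whose loss most disturbs rhythms in mice, had 364 and 779 counts, or 4.48 and 12.73 TPM (ratio 2.84, 2.51 to 3.23). Per3 (ENSMUSG00000028957.8, chromosome 4, 151003652 to 151044665), the member least required for the rhythm, had 327 and 683 counts, or 4.17 and 12.72 TPM (ratio 3.05, 2.67 to 3.49). Per2 and Per3 were near-equal to each other in each library, with a TPM ratio of Per2 to Per3 of 1.07 (0.923 to 1.25) in replicate 1 and 1.00 (0.902 to 1.11) in replicate 2. Neither was called with TMM sizes, at log2 count ratios of 0.52 and 0.49. With library totals, which raised every ratio by 0.61, both passed at 1.13 and 1.10, while with the GC trend removed they were at -1.35, a call of lower, and -0.35.

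The cryptochromes, the partners of the Period proteins in repression, changed places between the libraries. Cry1 (ENSMUSG00000020038.9, chromosome 10, 85131700 to 85185064) had 326 and 423 counts, or 8.01 and 13.8 TPM. It was not called (adjusted p = 0.0804, exact binomial test), and its log2 count ratio was -0.20 with TMM sizes and 0.41 with library totals. Cry2 (ENSMUSG00000068742.7, chromosome 2, 92403646 to 92434043) was at 5.14 and 53.29 TPM, from 247 and 2130 counts, a TPM ratio of 10.4 (9.08 to 11.9). It was called higher in replicate 2, with a log2 count ratio of 2.53 (adjusted p = 3.52e-230, exact binomial test), but not with the GC trend removed, where the ratio was 0.11. The level of Cry2 was 0.642 times that of Cry1 in replicate 1 (0.542 to 0.759) and 3.86 times in replicate 2 (3.48 to 4.30).

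The REV-ERB genes were far apart in replicate 1 and close in replicate 2. Nr1d2 (ENSMUSG00000021775.10, chromosome 14, 18204054 to 18239127) was the clock gene of highest mean TPM, at 101.85 in replicate 1 and 61.27 in replicate 2 (81.6 ± 28.7, SD, n = 2), from 6449 and 2918 counts. It was called lower in replicate 2, with a log2 count ratio of -1.72 with TMM sizes and -1.11 with library totals, but not with the GC trend removed (-0.33). Nr1d1 (ENSMUSG00000020889.11, chromosome 11, 98767932 to 98775333) was at 0.82 and 41.02 TPM, from 30 and 1108 counts, a TPM ratio of 50.02 (34.8 to 74.5). It was called higher (log2 count ratio 4.61, adjusted p = 8.59e-200, exact binomial test), also with the GC trend removed (1.49). Nr1d2 thus exceeded Nr1d1 by 124-fold in replicate 1 (86.9 to 184) and by 1.49-fold in replicate 2 (1.39 to 1.60).

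The output gene Dbp (ENSMUSG00000059824.6, chromosome 7, 45705088 to 45710203) had 57 counts in replicate 1 and 754 in replicate 2, or 5.45 and 61.09 TPM. The TPM ratio was 11.2 (8.56 to 14.9) and the log2 count ratio 3.14 (adjusted p = 2.45e-102, exact binomial test), a call of higher in replicate 2. With the GC trend removed the direction turned, to -1.75 and a call of lower. The effective length of Dbp, set by which of its transcripts the estimate favours, went from 728.03 to 1138.5 bases, so its TPM and count ratios rest on different lengths. The exons of Dbp and Nr1d1 overlap genes on the opposite strand, 539 bases with Sphk2, a sphingosine kinase gene, and 263 bases with Thra, a thyroid hormone receptor gene. The sources used here do not say whether counting used strand, and Sphk2 had 7 and 398 counts and Thra 402 and 9768. The part of such shared reads in the levels of Dbp and Nr1d1 was not tested.

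**Figure D1:**
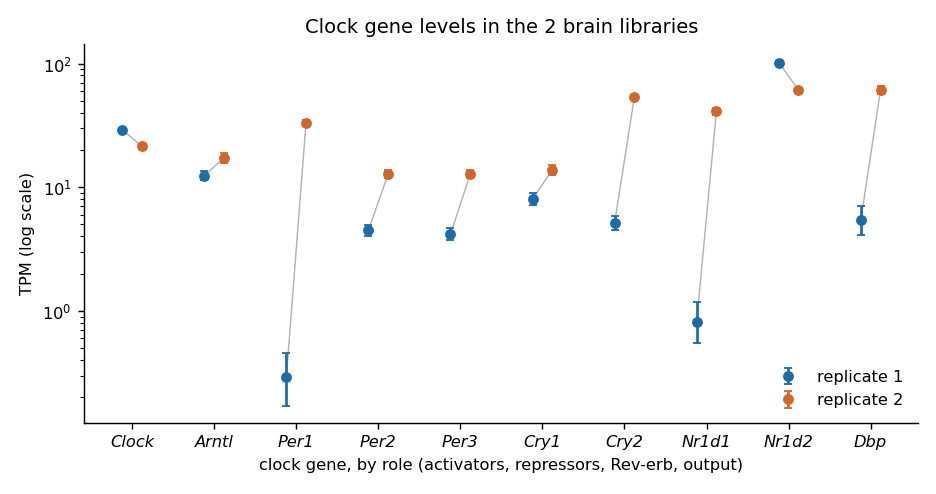
TPM of each clock gene in replicate 1 (blue) and replicate 2 (orange) on a log axis, ordered by role, with bars for the 95% counting interval (exact Poisson). Per1 and Nr1d1 lie below 1 TPM in replicate 1 and at 33.03 and 41.02 in replicate 2, while Clock and Nr1d2 are the 2 genes with a lower TPM in replicate 2.

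Ordered by mean TPM, the genes ran from Nr1d2 (81.6) through Dbp (33.3), Cry2 (29.2), Clock (25.3), Nr1d1 (20.9), Per1 (16.7), Arntl (14.8), Cry1 (10.9) and Per2 (8.61) to Per3 (8.45). The range over both libraries overlapped that of the next gene in 8 of 9 neighbouring places, so this order is not settled by these libraries. The exception, Nr1d2 above Dbp, rests on 61.27 against 61.09 TPM. Within replicate 1 the order was Nr1d2, Clock, Arntl, Cry1, Dbp, Cry2, Per2, Per3, Nr1d1 and Per1, and the counting intervals of 3 of 9 neighbours overlapped, those from Dbp to Per3. Within replicate 2 it was Nr1d2, Dbp, Cry2, Nr1d1, Per1, Clock, Arntl, Cry1, Per2 and Per3, with overlaps between Nr1d2 and Dbp and among the last 3. Of the 45 pairs of clock genes 29 had the same order in both libraries and 16 the opposite order. The share of opposite orders among pairs of all genes was not counted, so these numbers are not a trait of clock genes.

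Set against Arntl, which peaks in another phase of the daily cycle than the E-box targets, 4 of the other 9 clock genes were below it in replicate 1 and above it in replicate 2, 3 were below it in both and 2 above it in both. Per1 was at 0.0233 times the TPM of Arntl in replicate 1 (counting interval 0.0137 to 0.0373) and 1.92 times in replicate 2 (1.73 to 2.12). For Nr1d1 the ratios to Arntl were 0.0660 (0.0440 to 0.0954) and 2.38 (2.14 to 2.65). For Dbp they were 0.439 (0.327 to 0.578) and 3.54 (3.16 to 3.97). For Cry2 they were 0.413 (0.353 to 0.483) and 3.09 (2.80 to 3.41). These 4 are the genes called higher in replicate 2. They lie at 55.4% to 61.6% GC, and Arntl at 48.2%. Over all genes the median log2 ratio of TPM + 1 was 3.03 at 55 to 60% GC and 3.72 at 60 to 65%. It was 0.41 at 45 to 50%. The share of all genes that passed Arntl in this way was not counted. By the labels both libraries are of 1 mouse, so they compare no times of day. Per2, Per3 and Cry1, of the same repressor families, stayed below Arntl. The ratio of Per2 to Arntl was 0.360 (0.314 to 0.414) and 0.738 (0.659 to 0.827), that of Per3 0.336 (0.291 to 0.387) and 0.737 (0.656 to 0.829), and that of Cry1 0.644 (0.558 to 0.743) and 0.800 (0.702 to 0.912). Clock and Nr1d2 stayed above it, Clock at 2.35 (2.14 to 2.59) and 1.24 (1.12 to 1.37), and Nr1d2 at 8.19 (7.47 to 9.004) and 3.55 (3.23 to 3.91).

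Of the 10 clock genes, 4 (Per1, Nr1d1, Dbp and Cry2) were called higher and 2 (Clock and Nr1d2) lower in replicate 2. A call is an adjusted p under 0.05 in the exact binomial test on rounded expected counts, with TMM sizes and Benjamini-Hochberg adjustment over 16320 genes, and at least a 2-fold difference. Of all tested genes 34.5% were called higher and 24.0% lower, 58.5% in all, so the share of clock genes called is near that of all genes. The test compares these libraries and covers counting error only. Scaled by library totals, 6 clock genes were higher and 1 lower, beside 43.6% and 7.89% of all genes (51.5% together). DESeq2 size factors gave 4 and 2 again, beside 34.4% and 24.3% (58.7% together). So did TMM with the trend on length removed, beside 29.1% and 31.2% (60.3% together). The higher share of all calls was 59.0% with TMM, 84.7% with library totals, 58.6% with DESeq2 size factors, 48.2% with the length trend removed and 52.8% with the GC trend removed. The TPM was higher in replicate 2 for 8 of 10 clock genes, beside 74.0% of the 14229 genes whose mean TPM reached 1. The log2 ratio of TPM + 1 was at least 1 for 6 of 10, beside 47.7%, and at or below -1 for 0 of 10, beside 1.65%. That scale understates the change of low genes. Its median was 1.37 over the clock genes and 0.88 over all of those genes.

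The differences followed the GC content of the transcripts. Clock and Nr1d2, at 42.1% and 42.0% GC, had log2 ratios of TPM + 1 of -0.43 and -0.72, where genes of 40 to 45% GC had a median of -0.31. Arntl, at 48.2% GC, was at 0.44, beside a median of 0.41 at 45 to 50%. At 50 to 55% GC, where the median was 1.60, lay Cry1 (51.6%, ratio 0.72), Per3 (51.9%, 1.41) and Per2 (54.3%, 1.33). Cry2 (55.4%), Nr1d1 (56.8%) and Per1 (59.2%) were at 3.14, 4.53 and 4.72, beside a median of 3.03 at 55 to 60%. Dbp, at 61.6% GC, was at 3.27, beside 3.72 at 60 to 65%. Per1, Nr1d1, Cry2 and Arntl thus lay above the median of their class, and Per2, Per3, Cry1, Dbp, Clock and Nr1d2 below it. Spearman's rho of the ratio and GC content was 0.95 over the 10 clock genes and 0.89 over 14188 genes. It is a description, since genes share their libraries and are not independent replicates.

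**Figure D2:**
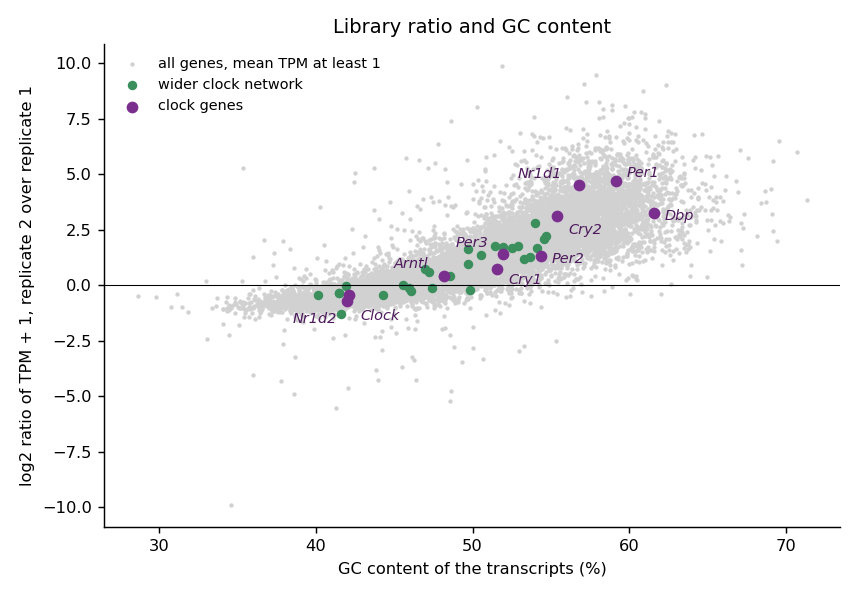
Log2 ratio of TPM + 1 (replicate 2 over replicate 1) against GC content in percent, for all genes whose mean TPM reached 1 (grey), 28 genes of the wider clock network (green) and the 10 clock genes (purple, named). The clock genes run from Nr1d2 and Clock below 0 near 42.0% GC to Per1 at 4.72 and 59.2% GC.

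With the smooth trend on GC content removed from the count ratios, 4 clock genes passed the test, beside 19.6% of 16263 genes (10.4% higher and 9.25% lower). Per1 and Nr1d1 remained higher in replicate 2, at log2 count ratios of 1.55 and 1.49 (adjusted p = 1.41e-07 and 1.82e-10, exact binomial test). Dbp and Per2, which had been above 0, were lower, at -1.75 and -1.35 (adjusted p = 3.83e-13 and 4.28e-42). The calls of Cry2, Clock and Nr1d2 ended, and Arntl (-0.21), Cry1 (-0.92) and Per3 stayed under 2-fold. The GC content of Dbp is that of 1 transcript, Dbp-201, since its other 4 had no sequence in the annotation used. Dbp-201 had 0 counts in replicate 1 and 508.24 in replicate 2. The GC content of the transcripts counted for Dbp in replicate 1 is thus not known, which limits the call of lower.

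**Figure D3:**
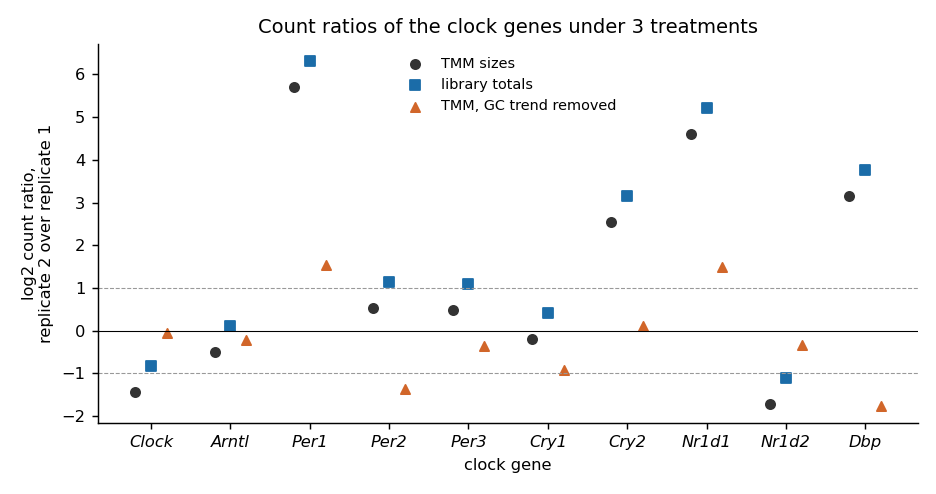
Log2 count ratio of replicate 2 over replicate 1 for each clock gene with TMM sizes (black circles), library totals (blue squares) and TMM with the GC trend removed (orange triangles), with dashed lines at 2-fold. Per1 and Nr1d1 stay above 1 in all 3, Dbp turns from 3.14 to -1.75 and Per2 from 0.52 to -1.35 with the GC trend removed, Per3 turns to -0.35, and Arntl and Cry1 are below 0 except with library totals.

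The parts of the transcripts differed in base composition as well. Across the leading transcripts, the coding GC content ran from 44.6% (Clock) to 65.9% (Dbp) and that of the 3′ UTR from 33.0% (Cry1) to 54.0% (Dbp). Clock and Nr1d2 had the longest 3′ UTRs, of 4525 and 2634 bases at 39.3% and 35.4% GC. Those of Per3, Cry2 and Per2 had 2227, 2180 and 1892 bases at 45.4%, 52.7% and 45.5% GC. The shortest were those of Nr1d1, Dbp, Arntl, Per1 and Cry1, at 291, 326, 510, 604 and 615 bases, with 50.2%, 54.0%, 33.9%, 52.5% and 33.0% GC. The length of the 3′ UTR thus did not separate the genes called higher from the rest. Its GC content did, at 50.2% to 54.0% in the genes called higher and at most 45.5% in the others. The 5′ UTR did not follow this order: that of Nr1d2 was at 75.4% GC and that of Nr1d1 at 56.8%. Cry1 joined a 5′ UTR of 73.5% GC to a coding sequence of 50.7% and a 3′ UTR of 33.0%. Of the leading transcripts 7 of 10 had the same length in the annotation as in the deposited tables, the exceptions being Arntl, Dbp and Cry1.

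**Figure D4:**
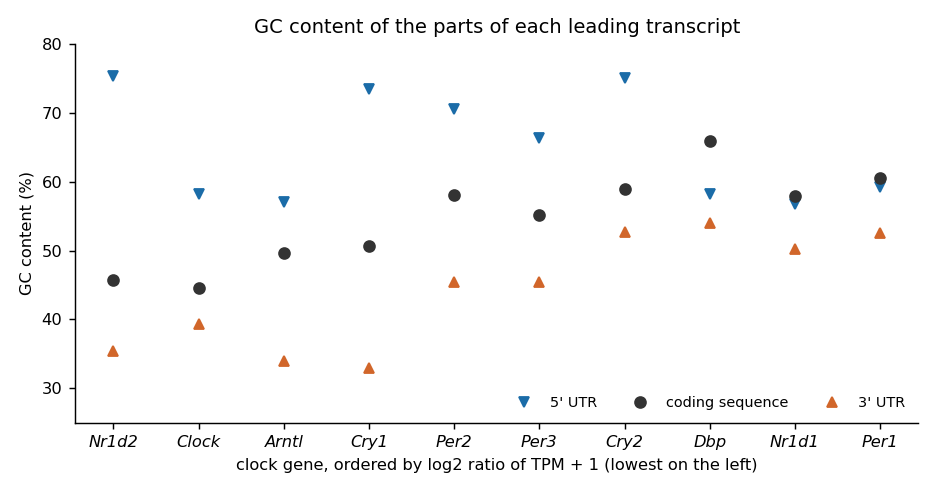
GC content in percent of the 5′ UTR (blue), coding sequence (black) and 3′ UTR (orange) of the leading transcript of each clock gene, ordered from the lowest to the highest log2 ratio of TPM + 1. Coding and 3′ UTR values are low on the left (Nr1d2 at 45.8% and 35.4%) and high on the right (Per1 at 60.5% and 52.5%), while the 5′ UTR of Nr1d2 is at 75.4%.

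The tables list 29 transcripts for the clock genes, of which 18 held at least 10% of their gene in either library. Arntl, Clock and Cry1 have 1 transcript each, and Per2-201, Nr1d1-201 and Nr1d2-201 held at least 97.2% of their genes in both libraries. On posterior mean estimates Per2-201 held 79.45% and 85.64%, Nr1d1-201 87.96% and 97.33%, and Nr1d2-201 97.47% and 96.9%. The transcript shares of Dbp differed widely between the libraries. Dbp-201, the full-length coding transcript (ENSMUST00000080885.5), had 0 counts in replicate 1 and 508.24 in replicate 2, a share of 0% and 47.9%. A count of 0 among the 57 counts of Dbp in replicate 1 allows up to 5.26% of those counts, for counting error only. The shares given are of TPM, a level per length, so that limit is not in like units. The short ENSMUST00000155439.1 (815 bases) held 89.57% and 9.42%, but its counts were alike, 44.35 and 39.17. The 801-base ENSMUST00000107741.1 went from 0 to 151.77 counts and a share of 37.32%. The higher Dbp count in replicate 2 thus stood mainly in 2 transcripts with no counts in replicate 1. Transcript shares are model estimates whose error was not tested.

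Other genes with several transcripts shifted less, or on few counts. Per1-201 held 77.42% of Per1 in replicate 2 and 0% in replicate 1, where Per1-206 took 84.28%. Per1 had 18 counts there, and a count of 0 allows up to 16.7% of them, a part of counts and not a share of TPM. Posterior mean estimates for replicate 1 gave both transcripts near-equal shares, 17.66% for Per1-201 and 18.08% for Per1-206. The largest share on that estimate was 35.95%, for the 496-base Per1-204. Per3-201, the full coding transcript, held 77.05% and 56.8%. The shorter Per3-204, annotated as a processed transcript, held 8.27% and 29.67%, from 17.23 and 142.21 counts. Cry2-201 held 76.07% and 94.54%, while Cry2-203, of 50.53% GC against 55.61% for Cry2-201, had 28 and 33.02 counts and a share of 19.95% and 3.02%. In Dbp and Cry2, the transcripts with near-equal counts in both libraries were thus not the leading coding transcripts.

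**Figure D5:**
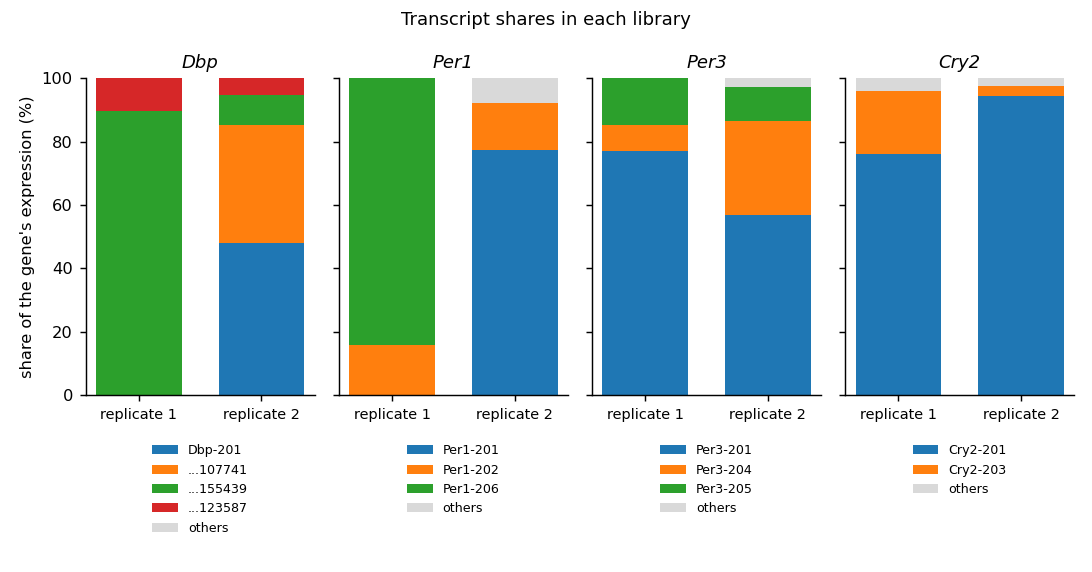
Share in percent of each gene's expression held by its transcripts in replicate 1 and replicate 2, for Dbp, Per1, Per3 and Cry2, with transcripts under 10% in both libraries summed as others and unnamed Dbp transcripts given by the last digits of their identifier. Dbp-201 goes from 0% to 47.9% and Per1-201 from 0% to 77.42%, while Cry2-201 leads Cry2 at 76.07% and 94.54%.

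The wider clock network was described by 28 further genes, all measured, of which 26 had a TPM of at least 1 in both libraries. With TMM sizes 8 of the 28 were called higher and 9 lower in replicate 2, beside 34.5% and 24.0% of all tested genes. Scaling by library totals gave 12 and 1, beside 43.6% and 7.89% of all tested genes. Among the 8 were the casein kinases Csnk1d and Csnk1e, which phosphorylate Period proteins, the repressors Ciart and Nfil3, the deubiquitinase Usp2, Timeless and Wdr5. The 8 had TPM ratios of 2.35 to 9.82 and 50.5% to 54.7% GC. Csnk1e was at 9.69 and 74.45 TPM and Csnk1d at 25.4 and 59.59. Among the 9 called lower were Rora and Rorb, which activate Arntl through the sites that REV-ERB proteins use, Arntl2, Hlf, Csnk1a1, Sfpq, Ppp1cb and Prkaa1. The 9 lay at 40.2% to 47.4% GC. Their TPM ratios ran from 0.412 to 1.00, so some differed little per length: Hlf was at 75.44 and 75.61 TPM and Sfpq at 133.23 and 123.16. Of these 9, Ppp1cb alone stayed called with library totals.

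The 5 wider genes of highest mean TPM were Ppp1cb (298.75 and 123.17 TPM), Csnk1a1 (210.5 and 153.37), Sfpq, Tef (47.94 and 164.1) and Hlf. Tef and Hlf encode D-box factors related to Dbp, and in both libraries both were above Dbp. Dbp stood at 0.114 times Tef in replicate 1 (counting interval 0.0858 to 0.148) and 0.372 times in replicate 2 (0.345 to 0.402). Against Hlf the ratios were 0.0722 (0.0546 to 0.0937) and 0.808 (0.746 to 0.874). Npas2, the forebrain relative of Clock, was at 4.02 and 14.91 TPM, and Clock exceeded it by 7.27-fold in replicate 1 (6.37 to 8.34) and 1.44-fold in replicate 2 (1.31 to 1.58). With the GC trend removed 1 of the 28 was called, beside 19.6% of all genes. It was Ciart, a repressor of the Clock and Arntl dimer, higher at a log2 count ratio of 1.16 (adjusted p = 3.6e-06, exact binomial test), from 40 and 172 counts. Its effective length went from 549 to 1081 bases, and with the trend on length removed its log2 count ratio was 0.26 and it was not called (adjusted p = 0.348, exact binomial test).

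Promoter sequences of RefSeq (GRCm38.p6), from 250 bases before to 50 after a start site, were found for 9 of the 10 genes, in 13 windows, and not for Per2. They are shown because the loops described above act through a few short motifs, searched on both strands. The E-box CACGTG was found in 2 of the 9 genes and in 7.15% of 32851 promoter windows of all genes. The related CACGTT was found in 3 of 9 and 4.68%, the D-box TTATGTAA in 1 of 9 and 0.938%, and TAGGTCA, the core of the REV-ERB and ROR site, in 1 of 9 and 2.61%. The cyclic AMP element TGACGTCA was found in 0 of 9 and 1.79%. The clock gene numbers count genes, which have 1 to 3 windows each, while the percentages count windows, so they are not in like units. Windows of 30 bases on the gene's strand are shown for the E-box, D-box and TAGGTCA matches and for CACGTT in the genes called higher, the third CACGTT match being in Cry1. Capitals mark the match, which is the reverse complement AACGTG for Nr1d1 and Cry2.
Per1, E-box, chr11:69098771-69098800: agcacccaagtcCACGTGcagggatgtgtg
Cry1, E-box, chr10:85185097-85185126: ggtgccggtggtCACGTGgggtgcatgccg
Nr1d1, CACGTT, chr11:98775388-98775417: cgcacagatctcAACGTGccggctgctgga
Cry2, CACGTT, chr2:92434218-92434247: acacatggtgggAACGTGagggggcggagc
Per3, D-box, chr4:151044852-151044881: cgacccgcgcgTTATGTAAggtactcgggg
Per3, D-box, chr4:151044805-151044834: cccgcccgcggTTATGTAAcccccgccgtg
Arntl, TAGGTCA, chr7:113207530-113207559: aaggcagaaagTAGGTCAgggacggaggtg
The match of Per1 begins 166 bases before a start site, that of Cry2 also 166, that of Cry1 60 and that of Nr1d1 28 bases before. The Arntl match begins at base 31 after the start. Per3 held the D-box at 205 and 158 bases before its start. A match is a description of these letters, and the other genes may carry such sites outside these windows.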

How the data were processed

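Poly(A) RNA from brain of 1 mouse was sequenced in 2 libraries, and the authors deposited a gene and a transcript table for each, on mm10 with GENCODE M4 per the file headers and the deposited file listings. The expected counts are the authors' estimates and need not be whole. Both tables also hold TPM as the authors computed it. Transcript shares within a gene are a percent the authors deposited. The sources used here do not give the quantifier, aligner, their versions or the use of strand.

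Rows without an Ensembl gene identifier were left out. GENCODE M21, on the same build, gave symbols, gene positions and sequences (97.95% of transcripts had a sequence), and promoters from RefSeq. Transcripts were weighted by mean TPM for a gene's GC content. Expected counts were rounded and compared by an exact binomial test (two-sided) where a gene's counts summed to 10 or more, with sizes scaled by TMM (edgeR 4.0.16, R 4.3.3) and 0.5 added to each count for the fold. With no replication, neither the edgeR quasi-likelihood model nor that of DESeq2 could be fitted. DESeq2 1.42.0 gave alternative size factors. Trends on GC content or length came from lowess (span 0.2, statsmodels 0.14.6), under Python 3.11.15 with scipy 1.17.1. The test was tried on simulated counts with counting error only and no trend on GC content or length. That trial does not cover the GC difference between these libraries. Counting intervals are exact (Clopper-Pearson for ratios, Poisson for levels, 95%), cover counting error only and do not cover the error of the transcript mix. A count of 0 allows up to 3 counts, 1.64e-05% and 1.68e-05% of the totals.

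The members and gene lists were chosen with earlier results of these data known. Named genes were all 10 members, the 5 of highest mean TPM and the called genes of the wider network (some are not reported here), markers that check the tissue, and transcripts with at least 10% of a gene in either library; Npas2 and the overlapping genes were added after their values were seen.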

Additional observations from a re-analysis of the deposited data

How the results depend on the processing

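Of 60 log2 count ratios of the clock genes under other settings, 49 kept direction and call, and DESeq2 size factors, no filter on low counts and posterior mean counts changed none. With library totals Arntl (0.10) and Cry1 (0.41) turned above 0, Per2 and Per3 passed and Clock did not. With the GC trend removed Per2 (-1.35), Per3 (-0.35) and Dbp (-1.75) turned below 0. Clock genes called higher went from 4 to 2 with the GC trend removed, and those called lower from 2 to 1 with library totals. Of the wider network, 17 calls (8 higher, 9 lower) became 1 (1 and 0) with the GC trend removed, and lower calls became 1 with library totals. Over all genes 9555 calls (5638 higher, 3917 lower) became 3190 (1685 and 1505) with the GC trend removed, and 1288 were lower with library totals. The causes were not tested. The median log2 ratio of TPM was 1.54 with a pseudocount of 0.1, 0.93 with 5 and 1.28 on posterior means, against 1.37. Mean TPM without replicate 1 or 2 is the level in the other library. Calls without a library could not be computed, since each side holds 1. No paired analysis was possible because there is 1 group. On posterior means the leading transcript share of Per1 went from 0% to 17.66% in replicate 1 and from 77.42% to 69.93% in replicate 2. That of Per2 went from 100% to 79.45% in replicate 1 and to 85.64% in replicate 2. In replicate 1 that of Nr1d1 went from 100% to 87.96%, of Per3 from 77.05% to 70.09% and of Cry2 from 76.07% to 69.11%. The share of Nr1d2 in replicate 2 changed little, from 97.23% to 96.9%. The ratios of Per1, Nr1d1 and Dbp rest on 18, 30 and 57 counts in replicate 1.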
